A study of Mus musculus with 6 samples.

Results

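Keratins and desmosomal cadherins are the structural genes of epithelial cells, and they were followed here in 6 mouse gliomas grown under the skin. The members were all genes measured by a probe set with a single gene symbol made of Krt and digits, or beginning with Dsg or Dsc and a digit. The probe set with the highest mean stood for a gene, although no member had more than 1. This gave 55 of 19938 genes, namely 48 keratins and 7 desmosomal cadherins. The keratins fell into 13 epidermal, 20 hair and inner root sheath, 5 simple epithelial, 5 mucosal and corneal and 5 other keratins.

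Keratins form intermediate filaments as obligate pairs of an acidic type I and a basic type II protein, and the pair tells the kind of epithelium. Krt14 with Krt5 marks basal keratinocytes of the epidermis, Krt10 with Krt1 the layers above them, and Krt18 with Krt8 simple epithelia such as glands. Desmogleins (Dsg) and desmocollins (Dsc) are the cadherins that join neighbouring cells at desmosomes, to which keratin filaments are anchored through plaque proteins. Glial cells build their filaments mainly from vimentin, nestin and Gfap instead.

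Total RNA of 3 relapsed gliomas, numbered 1, 2 and 3, and of 3 control gliomas, numbered 1, 2 and 4, was hybridised to Affymetrix arrays, 1 per tumour. Per the labels, glioma cells driven by mutant EGFR, the receptor of epidermal growth factor, were implanted in the flanks of Nu/Nu mice. This is a nude strain that lacks a functional thymus. The relapsed tumours are ones that came back after the mutant receptor was ablated, per the series title, and the others are labelled as control glioma. Doxycycline at 2 g/L was in the drinking water of some of the mice, but its group is not stated. All tumours were collected at 2 cm3. The labels give neither the ages of the mice nor the promoter of the receptor, and do not say whether the cells were 1 clone or the tumours came from separate animals.

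Values are log2 intensities as deposited, and a difference of 1 on this scale is a factor of 2. Quartiles were nearly equal across arrays, with medians of 6.67 to 6.68 in relapsed and 6.58 to 6.62 in control tumours. Of the markers of glioma cells, Sox2 had 9.47, 10.74 and 10.26 in relapsed 1, 2 and 3, against 11.38, 11.31 and 11.42 in control 1, 2 and 4. Olig2, a factor of oligodendrocyte progenitors, had 7.69, 7.71 and 6.48 in relapsed tumours, against 10.54, 11.42 and 10.55 in controls. Of 10 such markers, 4 fell (Olig1, Olig2, Bcan and Fabp7) and 0 rose, where 5.47% of all genes fell and 3.69% rose. The calls of Bcan and Fabp7 were lost without relapsed 1 (adjusted p of 0.0592 and 0.0536 in limma) or relapsed 3 (0.0668 and 0.071). Relapsed tumours also lay below all controls for Sox2 and nestin (Nes), which limma did not call. They did so for 17.8% of all genes. The groups overlapped for Gfap, Pdgfra, Cspg4 and Sox10, with mean differences of 0.64, 0.64, 0.09 and -0.14. Arrays also differed in markers of host tissue. The mean over 9 adipocyte markers was 9.08 in relapsed 1 against 6.32 to 6.78 in the other arrays, and the mean over 10 skeletal muscle markers was 9.06 in control 2 against 6.90 to 7.49. In bulk tumours, more cells of a type and more RNA per cell cannot be told apart.

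No keratin or desmosomal cadherin passed the test between relapsed and control tumours. By limma with Benjamini-Hochberg adjustment over all genes, 0 of 55 members passed at an adjusted p under 0.05, where 9.16% of all genes did (3.69% risen and 5.47% fallen). At an unadjusted p under 0.05 there was 1 member, Krt80, where 26.6% of all genes passed. The groups did not overlap for 1 of 55 members, again Krt80, while they did not overlap for 30.8% of all genes (relapsed tumours above in 13.0% and below in 17.8%). The smallest adjusted p of any member was 0.111, and over all alternative fits it was 0.0841. The intervals of the differences were wide for the members described next, and a missed threshold does not show that the groups were alike.

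The large gaps lay between single tumours of the relapsed group. Relapsed 3 was the highest of the 6 arrays for 27 of 55 members, while it was the highest for 15.6% of all genes. It exceeded each other array at least 2-fold for 14 members, which 0.557% of all genes did. Relapsed 1 was the highest for 6 members, where it was the highest for 16.4% of all genes, and exceeded each other array at least 2-fold for 3 of them, against 0.978% of all genes. Relapsed 2 and control 1, 2 and 4 exceeded the rest at least 2-fold for 0 members each, with 0.13%, 0.0702%, 0.266% and 0.0502% of all genes. They were the highest for 4, 8, 5 and 4 members, with 14.9%, 14.0%, 22.7% and 14.6% of all genes. With 1 array per tumour, these gaps have no replicate and no test. Relapsed 3 was examined because earlier results of these data had a keratinocyte score apart in it. Its high counts were therefore foreseen and are no independent evidence.

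**Figure D1:**
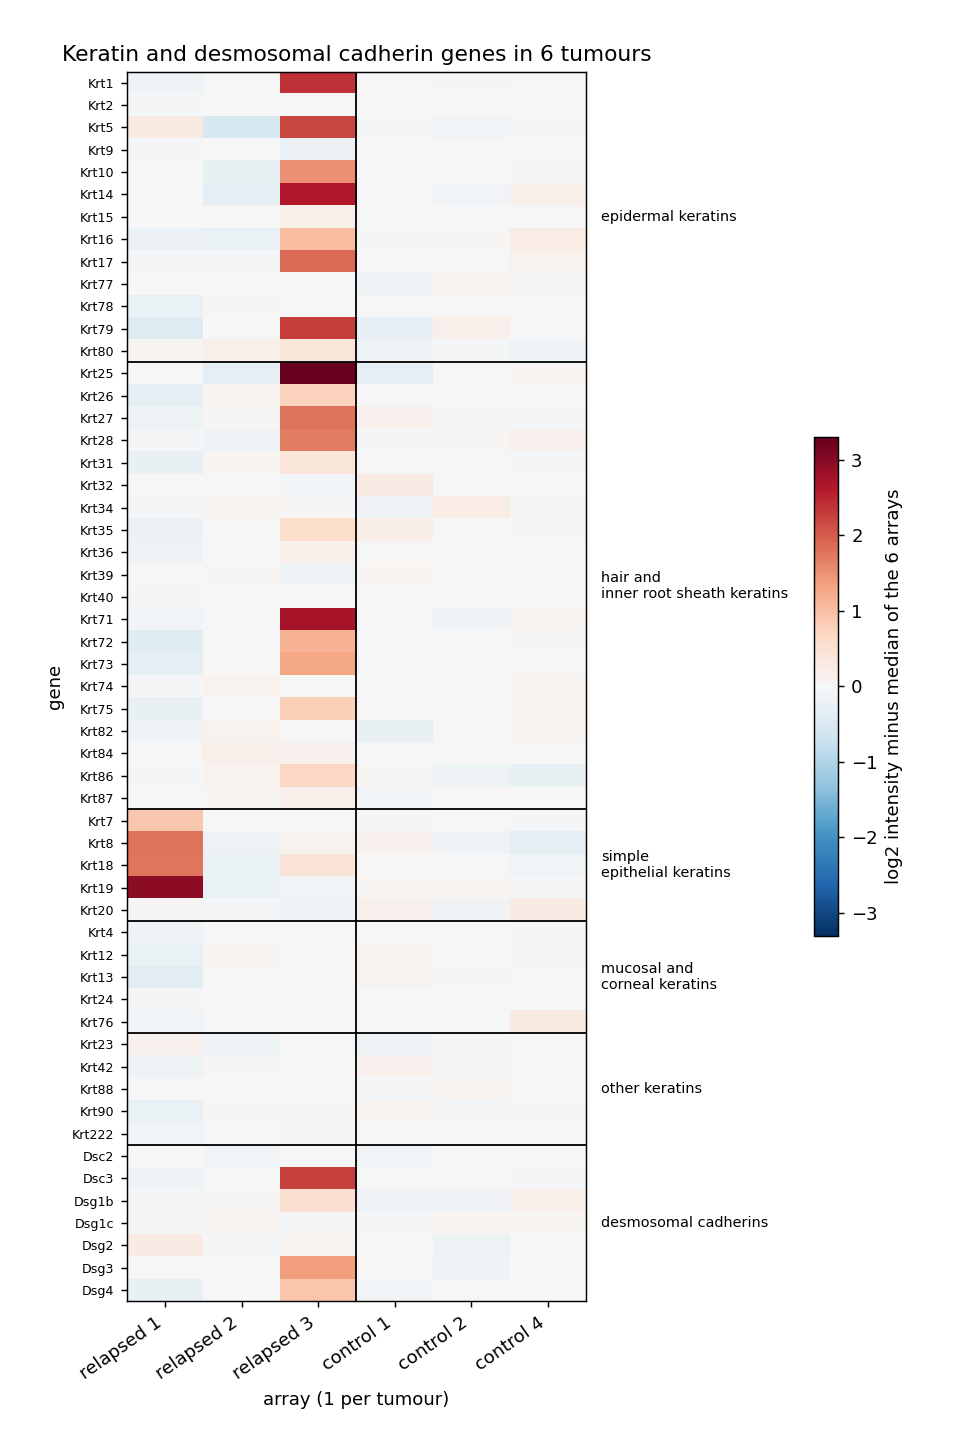
Log2 intensity of each of the 55 genes (rows, by class) in each tumour (columns), minus the gene's median over the 6 arrays. Red cells of some epidermal, inner root sheath and desmosomal cadherin genes stand in relapsed 3, and those of simple epithelial keratins other than Krt20 in relapsed 1.

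**Figure D2:**
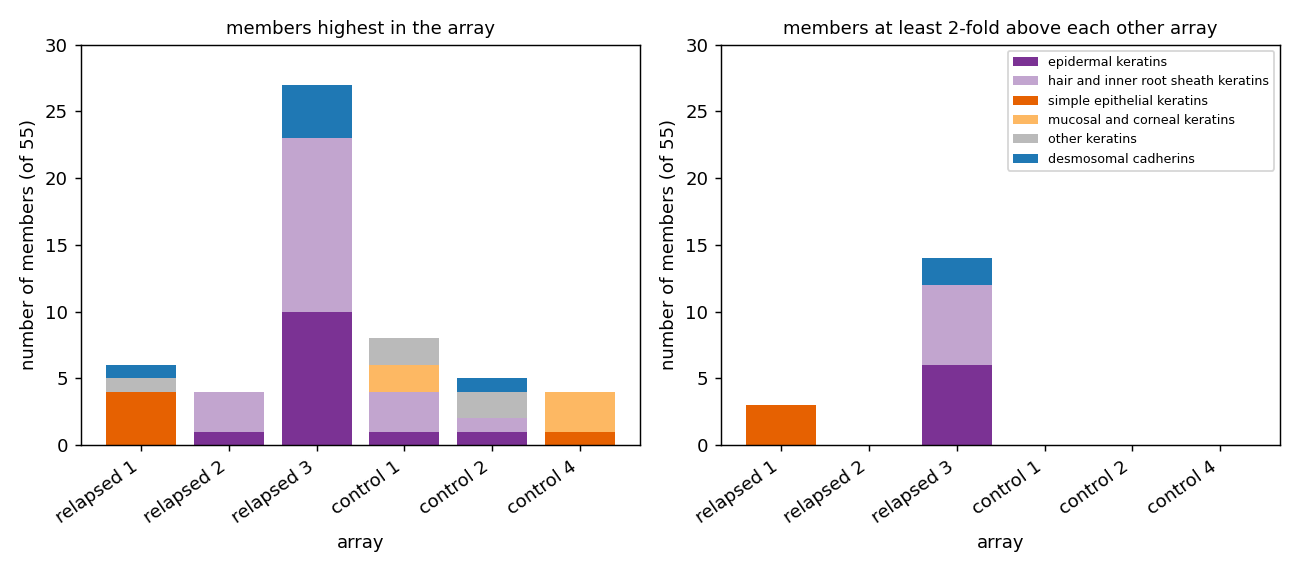
Number of the 55 genes that were highest in each array (left) and at least 2-fold above each other array (right), coloured by class. Relapsed 3 holds 27 and 14 genes, relapsed 1 holds 6 and 3, and no control array holds a gene in the right panel.

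Among the epidermal keratins, the basal pair Krt14 and Krt5 was high in relapsed 3. Krt14 had 5.93, 5.64 and 8.58 in relapsed 1, 2 and 3, against 5.93, 5.84 and 6.09 in control 1, 2 and 4. Its partner Krt5 had 6.08, 5.27 and 8.0 in relapsed tumours, against 5.75, 5.71 and 5.84 in controls. Relapsed 3 stood 5.62-fold above the next array for Krt14 and 3.79-fold for Krt5, while the other 5 arrays of both groups overlapped. The group difference of Krt14 was 0.76 ± 0.80 (SE, 3 arrays per group, 95% interval -1.23 to 2.76), with an adjusted p of 0.605 in limma, and -0.17 without relapsed 3. That of Krt5 was 0.68 ± 0.69, with an adjusted p of 0.594 in limma, and -0.09 without relapsed 3.

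The pair of the suprabasal layers was high in the same tumour. Krt1 had 4.97, 5.11 and 7.5 in relapsed 1, 2 and 3, against 5.12, 5.06 and 5.14 in control 1, 2 and 4. Its partner Krt10 had 6.13, 5.90 and 7.65 in relapsed tumours, against 6.14, 6.15 and 6.10 in controls. Relapsed 3 stood apart, 2.84-fold above the next array for Krt10. For Krt1 the gap was 2.36 on the log2 scale, from arrays that were dim (4.97 to 5.14). For these genes the 3 controls differed by less than 0.1 from each other (SD of 0.04 and 0.03).

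Keratins of wounded epidermis and of the follicle opening were high there too. Krt17, induced in wounds and present in follicles, had 6.09, 6.10 and 8.03 in relapsed tumours, against 6.18, 6.13 and 6.28 in controls. Krt79, expressed in the upper follicle and sebaceous ducts, had 5.79, 6.22 and 8.51, against 5.96, 6.39 and 6.22 in controls. Krt16, another wound keratin, had 4.88, 4.87 and 6.10, against 5.03, 5.13 and 5.32, so that its gap of 0.78 fell short of 2-fold. Krt6a and Krt6b, wound and follicle keratins whose symbols carry a letter and which were therefore no members, had gaps of 1.46 and 3.13 in relapsed 3. Of the hair keratins with a letter, Krt33a had 6.57 in relapsed 3 against 5.44 to 5.88 elsewhere, and Krt33b had 7.79 against 7.57 to 7.87. Krt14, Krt16 and Krt17, and likewise Krt6a and Krt6b, are close in sequence, and their probe sets may share signal.

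Other epidermal keratins varied less. Krt2 and Krt9, keratins of ear, tail and sole skin, ranged over 0.08 and 0.22 across the 6 arrays, Krt77 over 0.24 and Krt78 over 0.27. Krt15, of basal and bulge cells, had 5.67 in relapsed 3 against 5.49 to 5.50 in the other arrays. Krt80, found in many epithelia, was the 1 member whose groups did not overlap, with 7.13, 7.24 and 7.47 in relapsed tumours, against 6.91, 7.01 and 6.94 in controls. Its difference of 0.32 ± 0.10 had an adjusted p of 0.111 in limma, with a range of 0.0841 to 0.571 over the alternatives. The median difference of the 13 epidermal keratins was 0.32, and -0.09 without relapsed 3, against -0.02 for all genes both times.

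**Figure D3:**
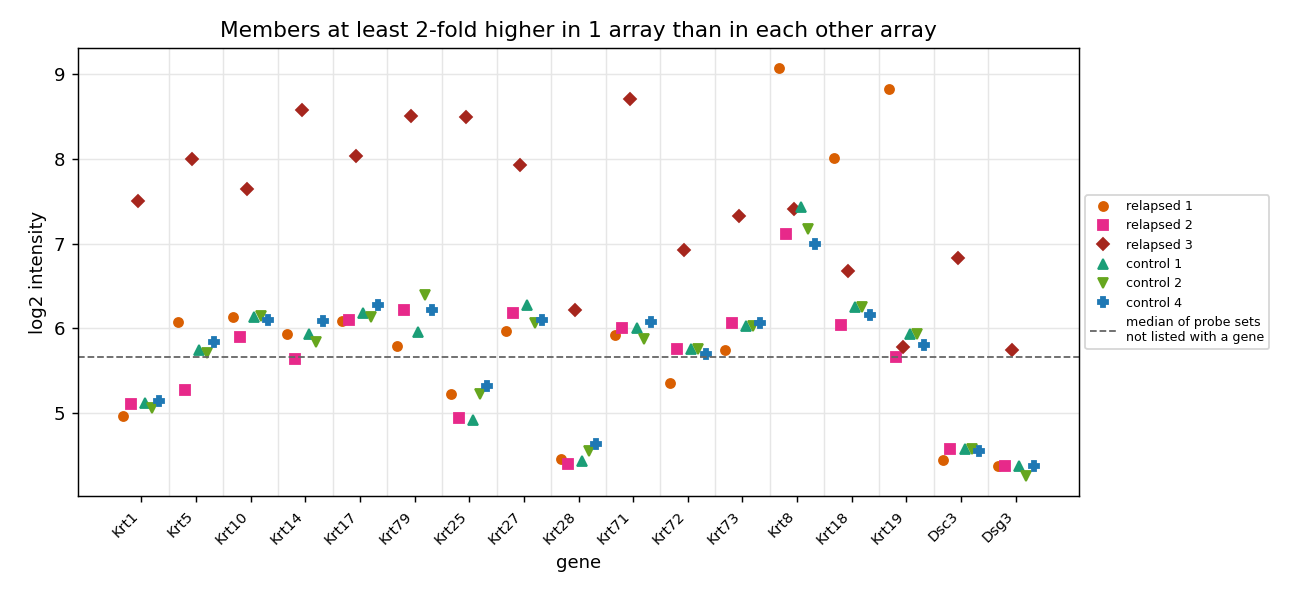
Log2 intensity (y axis) in each of the 6 tumours for the 17 genes at least 2-fold higher in 1 array than in each other array, with a symbol per tumour. Relapsed 3 is on top for 14 of them and relapsed 1 for Krt8, Krt18 and Krt19, while the dashed line marks 5.66, the median of probe sets without a gene in the annotation.

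Within the class of hair and inner root sheath keratins, those that stood out were all of the inner root sheath. Of 20 members, relapsed 3 was the highest for 13 and exceeded each other array at least 2-fold for 6, namely Krt25, Krt27, Krt28, Krt71, Krt72 and Krt73. These are 6 of the 8 keratins of the inner root sheath, the sleeve that moulds the growing hair, a subgroup singled out after the values were seen. Krt25 had 5.23, 4.94 and 8.5 in relapsed 1, 2 and 3, against 4.92, 5.23 and 5.32 in controls. Its gap was 3.18, measured from arrays under 5.66, the median of probe sets without a gene in the annotation, where intensities may hold little specific signal. Krt71, its type II counterpart, had 5.92, 6.0 and 8.71 in relapsed tumours, against 6.0, 5.88 and 6.08 in controls, a gap of 2.63.

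The other sheath keratins followed with smaller gaps. Krt27 had 5.97, 6.18 and 7.93 in relapsed tumours, against 6.28, 6.07 and 6.10 in controls. Krt28 had 4.46, 4.4 and 6.22, against 4.44, 4.56 and 4.64 in controls. Both were highest in relapsed 3, and the other 5 arrays lay within 0.31 of each other for Krt27 and 0.24 for Krt28. Krt73 had 5.75, 6.07 and 7.33 in relapsed tumours, against 6.03, 6.03 and 6.06 in controls, and Krt72 had 5.36, 5.76 and 6.92, against 5.76, 5.76 and 5.7. Of the remaining sheath keratins, Krt26 had a gap of 0.66 in relapsed 3. Krt74, which RefSeq annotates as a transcribed pseudogene in the reference strain, had 4.68 there within a range of 4.63 to 4.79.

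The hair shaft keratins had smaller gaps. Of 11 measured keratins of the shaft, nail and tongue and their relatives, relapsed 3 was the highest for 5, and 0 reached a 2-fold gap. Krt86, of the shaft cortex, had 3.94, 4.11 and 4.67 in relapsed tumours, against 4.03, 3.83 and 3.75 in controls, a gap of 0.56. Krt35, an early shaft keratin, had 6.58 in relapsed 3 against 5.79 to 6.21 in the other arrays. Krt75, of the companion layer beside the sheath, had 6.59 there against 5.56 to 5.89. Krt34 and Krt87 differed between groups by -0.01 ± 0.10 and 0.12 ± 0.07. The median difference of all 20 hair and sheath keratins was 0.11, and -0.07 without relapsed 3.

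The start regions of 10 of the 12 keratins that stood out in relapsed 3 are shown because these genes were high together. Krt1 and Krt17 are named only. Each line gives, 5′ to 3′, the last 100 bases of RefSeq's promoter window (GRCm38.p6), 50 before and 50 after the annotated start, with any TATAAA of that strand in capitals.
Krt25, chr11:99322902-99323001, minus strand: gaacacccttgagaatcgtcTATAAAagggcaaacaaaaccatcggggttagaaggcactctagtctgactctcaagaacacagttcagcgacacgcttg
Krt27, chr11:99351069-99351168, minus strand: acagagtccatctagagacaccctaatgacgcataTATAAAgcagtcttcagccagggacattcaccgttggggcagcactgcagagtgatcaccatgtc
Krt28, chr11:99374854-99374953, minus strand: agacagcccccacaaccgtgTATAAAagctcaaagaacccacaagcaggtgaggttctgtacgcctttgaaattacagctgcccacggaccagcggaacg
Krt71, chr15:101743048-101743147, minus strand: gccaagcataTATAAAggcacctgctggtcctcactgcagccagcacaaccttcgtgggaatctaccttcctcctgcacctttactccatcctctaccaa
Krt72, chr15:101786471-101786570, minus strand: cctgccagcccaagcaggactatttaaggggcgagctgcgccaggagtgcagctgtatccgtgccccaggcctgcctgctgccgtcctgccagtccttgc
Krt73, chr15:101802311-101802410, minus strand: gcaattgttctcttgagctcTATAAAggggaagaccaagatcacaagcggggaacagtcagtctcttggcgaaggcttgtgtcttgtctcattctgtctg
Krt10, chr11:99389315-99389414, minus strand: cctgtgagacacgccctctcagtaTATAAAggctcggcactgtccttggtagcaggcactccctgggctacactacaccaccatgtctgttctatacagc
Krt5, chr15:101712856-101712955, minus strand: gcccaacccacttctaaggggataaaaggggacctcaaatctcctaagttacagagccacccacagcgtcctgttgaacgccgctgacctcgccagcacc
Krt14, chr11:100205981-100206080, minus strand: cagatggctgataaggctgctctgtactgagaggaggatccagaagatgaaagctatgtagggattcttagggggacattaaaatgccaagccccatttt
Krt79, chr15:101940275-101940374, minus strand: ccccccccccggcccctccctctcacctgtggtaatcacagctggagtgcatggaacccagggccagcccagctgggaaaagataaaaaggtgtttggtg

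TATAAA is the core of the TATA box, which positions RNA polymerase II. It stood on the gene's own strand within the 50 bases before the annotated start in 6 of 7 inner root sheath windows, the exception being Krt72. It did so in 10 of 16 windows of all hair and sheath keratins, but in 1 of 8 epidermal windows, that of Krt10. Only the exact letters were searched, at annotated starts, so near matches such as gataaa in the printed stretch of Krt5 were not counted. Over all keratin members with a RefSeq window the share was 38.9% (14 of 36 windows of 35 genes), against 2.63% of 32851 windows of all genes. Counted on both strands over the whole 300 bases, TATAAA was found in 18 of 36 keratin windows and 13.6% of all windows. GGGCGG, the GC box, was found on either strand in 5.56% of keratin windows and 35.7% of all windows. GCCNNNGGC, resembling sites of AP-2, was found in 19.4% and 16.6%, and TGANTCA, resembling AP-1 sites, in 5.56% and 7.81%. Krt14, Krt5 and Krt79 held no TATAAA in the printed stretch, and Krt32, Krt34 and Krt40, which were level in relapsed 3, held one before the start.

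**Figure D4:**
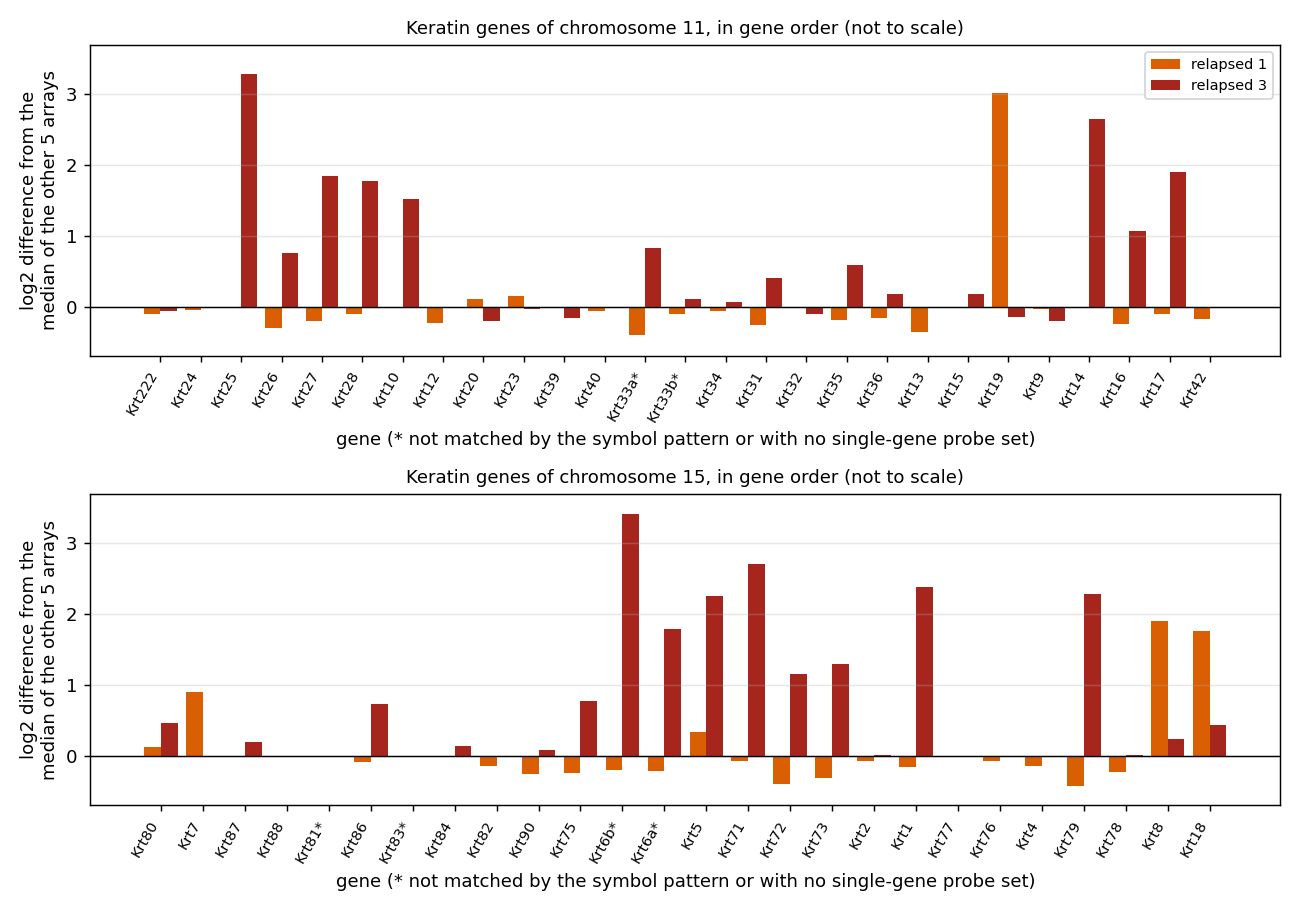
Log2 difference of relapsed 1 and of relapsed 3 from the median of the other 5 arrays (y axis) for each keratin gene in its order along chromosomes 11 and 15. High values of relapsed 3 stand in runs from Krt25 to Krt10, from Krt14 to Krt17 and from Krt6b to Krt73. Level genes such as Krt77, and dim ones such as Krt2, lie between high ones. Those of relapsed 1 stand at Krt19 and at the neighbours Krt8 and Krt18.

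Most keratin genes lie in a type I cluster on chromosome 11 and a type II cluster on chromosome 15. On chromosome 11, the adjacent genes Krt25, Krt26, Krt27, Krt28 and Krt10 stood 3.28, 0.76, 1.84, 1.77 and 1.52 above the median of the other 5 arrays in relapsed 3. The next genes along, Krt12, Krt20 and Krt23, differed by -0.01, -0.21 and -0.04. On chromosome 15, Krt6b, Krt6a, Krt5, Krt71, Krt72 and Krt73 stood 3.41, 1.79, 2.25, 2.71, 1.16 and 1.30 above. Krt2 followed with 0.01 and Krt1 with 2.39. Then came Krt77, Krt76 and Krt4 with 0.0 each and Krt79 with 2.28. Krt20, Krt2, Krt76 and Krt4 were under 5.66 in all 6 arrays, where intensities may hold little specific signal. Of the level genes between Krt1 and Krt79, Krt77 alone lay above 5.66, at 5.69 to 5.93.

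Simple epithelial keratins set another tumour apart. Krt19, of glandular and ductal epithelia, had 8.83, 5.66 and 5.78 in relapsed 1, 2 and 3, against 5.93, 5.94 and 5.81 in control 1, 2 and 4. Relapsed 1 stood 7.43-fold above the next array, while relapsed 2 and 3 lay below all 3 controls. Krt8 had 9.07, 7.11 and 7.41 in relapsed tumours, against 7.43, 7.17 and 7.0 in controls. Its partner Krt18 had 8.01, 6.04 and 6.68, against 6.25, 6.25 and 6.16. Relapsed 1 was 3.10-fold above the next array for Krt8 and 2.52-fold for Krt18, and for Krt18 relapsed 3 also lay above all 3 controls.

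Krt7, a further ductal keratin, had 6.85, 5.95 and 5.95 in relapsed tumours, against 5.89, 5.97 and 5.92 in controls, a gap of 0.89 in relapsed 1. Krt20, of intestine and urothelium, had 5.29, 5.19 and 5.08, against 5.38, 5.12 and 5.51 in controls, and no array stood apart. The group differences were 0.86 ± 0.89 for Krt19, 0.66 ± 0.53 for Krt8 and 0.69 ± 0.50 for Krt18, with adjusted p of 0.598, 0.497 and 0.446 in limma. Without relapsed 1 these differences were -0.18, 0.06 and 0.14. The median difference of the 5 genes was 0.66 with all arrays and 0.02 without relapsed 1.

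The start regions of Krt8 and Krt18 are shown as those of the neighbouring pair that was high in relapsed 1, in the same layout and with TATAAA in capitals. In Krt8 the match overlaps the annotated start.
Krt8, chr15:102004293-102004392, minus strand: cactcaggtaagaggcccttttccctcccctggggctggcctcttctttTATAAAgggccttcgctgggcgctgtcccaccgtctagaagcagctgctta
Krt18, chr15:102028166-102028265, plus strand: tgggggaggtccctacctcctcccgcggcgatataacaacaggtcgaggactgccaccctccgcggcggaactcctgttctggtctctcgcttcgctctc

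Relapsed 1 and relapsed 3 differed in the class of keratin that was high. Relapsed 1 held 0 of 13 epidermal, 0 of 20 hair and sheath and 4 of 5 simple keratins as the highest array, while relapsed 3 held 10, 13 and 0. Relapsed 2 was the highest for 1 epidermal keratin, Krt78, and for 3 hair keratins, with gaps under 0.1. Mucosal and corneal keratins (Krt4, Krt12, Krt13, Krt24 and Krt76) were highest in a control array for all 5, by 0.30 or less. The other keratins (Krt23, Krt42, Krt88, Krt90 and Krt222) all ranged over less than 0.5 across the 6 arrays.

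Desmosomal cadherins followed the epidermal keratins in part. Dsc3, the desmocollin of basal and lower suprabasal cells, had 4.45, 4.58 and 6.83 in relapsed 1, 2 and 3, against 4.58, 4.58 and 4.55 in control 1, 2 and 4. Dsg3, the desmoglein of the same layers, had 4.38, 4.38 and 5.75 in relapsed tumours, against 4.38, 4.26 and 4.38 in controls. Dsg4, of the hair follicle, had 4.16, 4.41 and 5.32, against 4.32, 4.41 and 4.41. All were highest in relapsed 3, with gaps of 2.25 for Dsc3, 1.36 for Dsg3 and 0.91 for Dsg4. These gaps start from arrays under 5.66, and Dsg4 was under it in all 6 arrays, so no fold is given. Their group differences of 0.72 ± 0.66, 0.50 ± 0.39 and 0.25 ± 0.31 had adjusted p of 0.553, 0.487 and 0.657 in limma.

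The isoforms of the upper epidermis and of simple epithelia showed no 2-fold gap. All 4 that follow were under 5.66 in every array, where intensities may hold little specific signal. Dsg1b, of differentiated keratinocytes, had 4.27, 4.36 and 4.81 in relapsed tumours, against 4.19, 4.21 and 4.48 in controls, and Dsg1c had 4.02, 4.14 and 4.03, against 4.03, 4.16 and 4.14. The copies of Dsg1 are near-identical in sequence, so their probe sets are uncertain, and a probe set listing Dsg1a, Dsg1b and Dsg1c together was left out by the rule. Dsg2, found in simple epithelia and heart, had 5.25, 4.95 and 5.08, against 4.99, 4.81 and 4.99 in controls. Dsc2 had 4.89, 4.81 and 4.89, against 4.81, 4.89 and 4.89. In relapsed 1, the tumour with high Krt8 and Krt18, Dsg2 was highest by 0.17 and Dsc2 tied with other arrays. Dsc1 was not analysed here. The median difference of the 7 cadherins was 0.19, and -0.01 without relapsed 3.

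Many members were dim. The 6 arrays were all under 5.66 for 17 of 55 members, among them 5 of 7 desmosomal cadherins, and 28 members ranged over less than 0.5. Of the 14 members that stood out in relapsed 3, Krt1, Krt25, Krt28, Dsc3 and Dsg3 were above 5.66 in that array alone.

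Among genes of the desmosomal plaque, some fell across the relapsed group and others were high in relapsed 3. Of 17 measured genes of the plaque and skin adhesion, 3 fell in relapsed tumours and 0 rose, where 5.47% of all genes fell and 3.69% rose, with a median difference of 0.14 against -0.02 for all genes. Jup, plakoglobin, which links cadherins of desmosomes and adherens junctions to the cytoskeleton, had 10.31, 10.15 and 10.64 in relapsed 1, 2 and 3, against 11.50, 11.99 and 11.44 in control 1, 2 and 4. Ppl, periplakin, which tethers filaments at the cell periphery, had 7.47, 8.37 and 8.07 in relapsed tumours, against 10.36, 9.90 and 9.73 in controls. Pkp4, an armadillo protein of adherens junctions and plaques, had 9.27, 9.63 and 9.57, against 10.19, 9.95 and 10.17. The groups did not overlap for any of these, and relapsed 3 lay with the other relapsed tumours. For 3 further genes that limma did not call, Cdh1, Cdh3 and Lamb3, the relapsed tumours lay above all controls. Among all genes, the relapsed tumours lay above all controls for 13.0% and below for 17.8%, so such separation was common.

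The differences were -1.28 ± 0.20 for Jup, -2.03 ± 0.28 for Ppl and -0.61 ± 0.12 for Pkp4, and limma gave adjusted p of 0.0235, 0.0194 and 0.0422. The calls did not hold when single arrays were left out. That of Jup was lost without relapsed 1, 2 or 3 or control 1 or 4 (adjusted p of 0.0677, 0.076, 0.0583, 0.0694 and 0.0676 in limma). That of Ppl was lost without relapsed 3 or control 1, 2 or 4 (0.0689, 0.0623, 0.059 and 0.0619). That of Pkp4 was lost without relapsed 1, 2 or 3 or control 1, 2 or 4 (0.0657, 0.0816, 0.104, 0.128, 0.0678 and 0.132), and also with all probe sets tested (0.0588) and with a mean-variance trend (0.0524).

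Dsp, desmoplakin, which binds keratin filaments to the plaque, was high in relapsed 3 like the keratins. It had 5.51, 5.51 and 7.71 in relapsed tumours, against 5.41, 5.51 and 5.51 in controls. Perp, a desmosomal membrane protein, had 8.49, 7.34 and 10.06, against 7.62, 6.63 and 7.14 in controls, again highest in relapsed 3 by 1.58. Their group differences of 0.77 ± 0.63 and 1.5 ± 0.72 had adjusted p of 0.504 and 0.257 in limma. Plakophilins of the plaque showed no such gap, with Pkp1 at 7.06, 8.77 and 8.32, against 8.20, 7.87 and 7.53, and Pkp3 at 6.62, 6.68 and 6.60, against 6.62, 6.64 and 6.60.

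**Figure D5:**
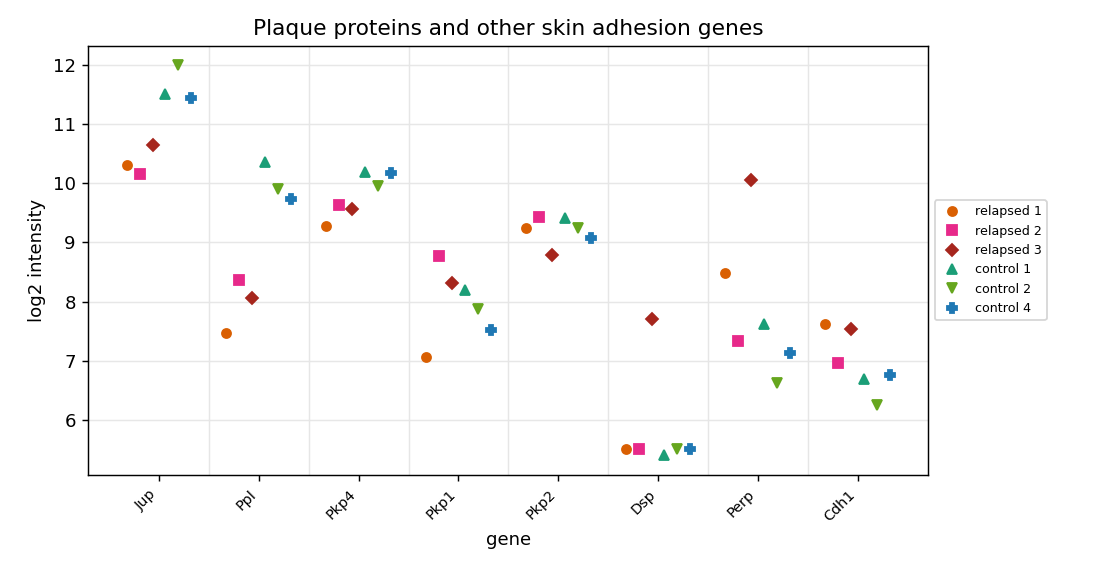
Log2 intensity (y axis) of 8 plaque and skin adhesion genes in each of the 6 tumours, with a symbol per tumour. Jup, Ppl and Pkp4 are lower in all 3 relapsed tumours than in all 3 controls, while Dsp and Perp are high in relapsed 3.

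Markers of skin moved with the keratins in relapsed 3, and their part in these results was not tested. Of 24 cornified envelope genes, relapsed 3 was the highest for 17 and at least 2-fold above the rest for 6, and the mean over the list reached 6.54 there, with 5.84 in relapsed 1 and 5.75 in relapsed 2, against 5.71 to 5.73 in controls. Sprr1b, a cross-linked envelope precursor, had 7.82 in relapsed 3 against 5.76 to 5.99 elsewhere, Klk7, a protease of skin shedding, 7.80 against 5.82 to 5.99, and Krtdap 6.68 against 4.75 to 4.93. Of 22 follicle genes, relapsed 3 was the highest for 12 and 2-fold above for 3, with a list mean of 6.39 there and 5.84 to 6.07 in the other arrays. Among all genes, relapsed 3 was the highest for 15.6% and at least 2-fold above the rest for 0.557%. Not all follicle genes were high there, with Foxn1 at 5.67 against 5.60 to 5.75 and Padi4 at 5.44 against 5.69 to 5.79. Krtap15, a hair keratin-associated protein, had 8.22 against 4.10 to 4.24, and Tchh, trichohyalin of the inner root sheath, 7.41 against 5.47 to 5.85. The other measured Krtap genes of the list reached no 2-fold gap. Krtap3-1 and Krtap6-1 were highest in a control array, and the largest gap of the rest was 0.52, for Krtap8-1. Limma called 0 of the 24 envelope genes, where it called 9.16% of all genes. At an unadjusted p under 0.05 there were 3, Tgm1 and Ly6d with higher and Cdsn with lower values in relapsed tumours, where 26.6% of all genes passed. Of the follicle genes Lhx2, a factor of follicle stem cells and of forebrain, fell, with 7.37, 7.35 and 7.4 in relapsed tumours, against 8.02, 8.44 and 8.16 in controls. Its difference of -0.83 ± 0.11 had an adjusted p of 0.0192 in limma, and the call was lost without relapsed 1, 2 or 3 or control 4 (0.054, 0.0673, 0.0688 and 0.0703).

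Keratinocyte lineage factors had smaller gaps, apart from Sfn. Trp63, the master factor of stratified epithelia, had 6.23, 6.23 and 6.80 in relapsed 1, 2 and 3, against 6.18, 6.19 and 6.27 in controls. Col17a1, a hemidesmosomal collagen of basal cells, had 6.41, 6.41 and 6.79, against 6.44, 6.35 and 6.39. Both were highest in relapsed 3, by less than a factor of 2. Of 15 such factors, relapsed 3 was the highest for 8, where it was the highest for 15.6% of all genes. Sfn, the 14-3-3 sigma gene, alone reached a 2-fold gap, with 7.75 against 6.52 to 6.71, as 0.557% of all genes did. All 5 basal keratinocyte markers (Krt5, Krt14, Trp63, Col17a1 and Itgb4) were highest in relapsed 3, as were 15.6% of all genes. Only 2 of them reached a 2-fold gap, the members Krt5 and Krt14 described above. Itgb4 had 9.13 there against 7.51 to 8.85 elsewhere, with a group difference of 0.0.

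In relapsed 1, adipocyte markers moved with the simple keratins, and their part in these results was not tested. That array was at least 2-fold above the rest for 7 of 9 adipocyte markers, as it was for 0.978% of all genes. Fabp4 had 11.22 there against 6.73 to 7.97, and Retn 10.63 against 6.09 to 6.74. Among epithelial genes, Epcam, an adhesion molecule of simple epithelia, had 8.16, 6.53 and 7.69 in relapsed tumours, against 6.71, 6.19 and 6.55 in controls. Gata3, a factor of luminal mammary cells, follicles and T cells, had 7.05, 5.59 and 5.67, against 5.59, 5.54 and 5.59. Cdh3, P-cadherin, had 7.25, 6.01 and 6.25, against 5.97, 5.99 and 5.90. Gata3 and Cdh3 thus stood apart in relapsed 1, and Epcam in relapsed 3 also lay above all controls. Epcam, Gata3 and Cdh3 were picked from the lists of keratinocyte lineage factors, follicle genes, and plaque and skin adhesion genes. Relapsed 1 was the highest for 2 of 15, 1 of 22 and 3 of 17 genes of these lists, against 16.4% of all genes. Of 5 mesothelial markers other than keratins, Msln, Upk3b, Lrrn4 and Wt1 were not highest in relapsed 1, and Upk1b had 6.03 there against 5.36 to 5.54.

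Among all genes, the 15 with the largest gap in relapsed 3 included the members Krt25, Krt71 and Krt14, and Krt6b. The list was led by Tmprss11b, a serine protease of squamous epithelia, with 9.23 against 3.73 to 3.93. It also held Krtap15, Defb6, a beta-defensin, with 7.99 against 4.76 to 4.84, Dapl1 with 8.47 against 4.92 to 5.20, Plet1 with 10.35 against 6.27 to 7.28, and Prr9, Clca4a and Serpinb7. The remaining genes were Gpr149 and the neurofilament genes Nefl and Nefm. For relapsed 1, a list drawn up after the values were seen placed Krt19 among 15 genes led by Cyp2e1, Adipoq and Retn.

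Other intermediate filament genes were measured beside the keratins. Vim, vimentin, had 13.42, 13.47 and 13.48 in relapsed 1, 2 and 3, against 13.54, 13.56 and 13.47 in control 1, 2 and 4, and was close in all 6 tumours. Of 16 measured genes, 1 rose and 1 fell, beside 3.69% and 5.47% of all genes. Sync, syncoilin, rose by 1.06 ± 0.19 with an adjusted p of 0.034 in limma, and Ina, internexin of neurons, fell by 1.84 ± 0.30 with an adjusted p of 0.0267. The call of Sync was lost without any 1 of the 6 arrays (adjusted p of 0.059 to 0.109 in limma). That of Ina was lost without relapsed 1, 2 or 3 or control 2 or 4 (0.0657, 0.0895, 0.0942, 0.0806 and 0.0546).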

How the data were processed

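Affymetrix arrays of 6 tumours gave 1 log2 intensity for each of 35556 probe sets. The authors deposited log2 values, and per the submitters' processing notes the affy package was used. No version, background correction or summarization is stated in the labels. Quartiles were nearly equal across arrays, so the values were taken as already normalized, which hides any change shared by most genes.

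Groups come from the sample descriptions. The platform annotation gave 1 symbol to 21789 probe sets, several to 1621 and none to 12146. Genes were taken by their highest-mean probe set and fitted with limma 3.58.1 in R 4.3.3 (lmFit and eBayes, relapsed against control, 4 residual degrees of freedom, prior 1.53), two-sided, with Benjamini-Hochberg adjustment over 19938 genes and calls at 0.05. The fit was tested on simulated data. Errors of differences are SE. P-values measure the spread between these tumours, and 3 arrays per group limit the precision.

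A gap is the highest array minus the next on the log2 scale. All called members were to be named, with all desmosomal cadherins, the 4 brightest members of each keratin class, those at least 2-fold above the next array, the keratins with a letter in the symbol, in each other list up to 4 called genes and 4 gaps of relapsed 3, and the 15 largest gaps of relapsed 3 over all genes. Members and lists were chosen with earlier results of these data known, and other genes named were picked after their values were seen. Alternatives were quantile normalization, median centring, a 50% filter on dim genes, probe set means, all probe sets, a variance trend, the replicate block and leaving out each array. Gene order and promoters are RefSeq's for GRCm38.p6.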

Additional observations from a re-analysis of the deposited data

How the results depend on the processing

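The count of 0 called members held under every alternative run. The count of all called genes was 264 to 975 when 1 array was left out, and 0 with the replicate block. That fit keeps 1 residual degree of freedom and draws the difference from the numbers 1 and 2 alone, without relapsed 3 and control 4. The labels do not say that equal numbers pair tumours, and deviations of same-numbered arrays from their group means correlated at -0.337 and -0.248 over genes. With the dimmer 50% of genes left out, 1 member remained, so that 0 were highest in relapsed 3 and 0 were 2-fold above. Without that filter, relapsed 3 was the highest for 26 to 29 members over the alternatives, and 14 stood 2-fold above under each of them. For relapsed 1, alternatives added after seeing the data (quantile normalization and median centring) gave 5 or 6 highest and 3 at 2-fold.

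Of 409 alternative fits of 34 named members, 368 kept the sign, 41 turned it and 0 made a call. With the replicate block the difference was -0.07 for Dsc3, -0.08 for Dsg4, -0.06 for Krt1, -0.13 for Krt10, -0.10 for Krt14, -0.06 for Krt17, -0.10 for Krt27, -0.07 for Krt28, -0.06 for Krt5, -0.20 for Krt72, -0.12 for Krt73 and -0.17 for Krt79. Quantile normalization gave -0.02 for Dsc2, and median centring -0.07 for Dsc2 and -0.05 for Krt23. When 1 array was left out, differences ran from -0.06 to 1.14 for Dsc3, -0.10 to 0.49 for Dsg4, -0.07 to 1.19 for Krt1, -0.11 to 0.77 for Krt10, -0.17 to 1.30 for Krt14, -0.10 to 0.87 for Krt17, -0.08 to 1.71 for Krt25, -0.08 to 0.90 for Krt27, -0.12 to 0.79 for Krt28, -0.09 to 1.28 for Krt5, -0.03 to 1.37 for Krt71, -0.18 to 0.60 for Krt72, -0.13 to 0.66 for Krt73 and -0.18 to 1.17 for Krt79, each lowest and below 0 without relapsed 3. They ran from -0.18 to 1.41 for Krt19, below 0 without relapsed 1, and from -0.03 to 0.03 for Dsc2, -0.14 to 0.0 for Krt12, -0.04 to 0.09 for Krt23, -0.08 to 0.10 for Krt34, -0.04 to 0.01 for Krt88 and -0.09 to 0.05 for Krt90. Low signal over background limits most members.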

Other observations

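Relapsed 3 also stood apart in genes outside the skin lists. Nefl, the light neurofilament chain of neurons, had 6.08, 8.05 and 12.51 in relapsed 1, 2 and 3, against 7.26, 6.45 and 7.88 in control 1, 2 and 4. Nefm, the medium chain, had 5.48, 6.02 and 9.07, against 6.25, 6.01 and 6.68. The heavy chain Nefh was level, with 6.77, 6.93 and 6.85, against 6.94, 6.85 and 6.85. The group difference of Nefl was 1.68 ± 1.66, with an adjusted p of 0.58 in limma.

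Among other cells of skin, Tyrp1, a melanosome enzyme, had 5.25, 5.28 and 6.43 in relapsed tumours, against 5.34, 4.90 and 5.15 in controls. Of the other melanocyte markers, Dct had 5.83 in relapsed 3 against 5.16 to 5.26 elsewhere. Tyr, Mlana and Oca2 differed between groups by -0.01, 0.03 and 0.03, and Pmel and Slc45a2 by -0.15 and -0.27. For Pmel and Slc45a2 the relapsed tumours lay below all controls, as they did for 17.8% of all genes. For Pmel the highest relapsed and the lowest control value were both 5.89 after rounding. Mitf, the melanocyte master factor, had 8.63, 8.52 and 8.46 in relapsed tumours, against 7.88, 7.82 and 7.96 in controls, and rose by 0.65 ± 0.07 with an adjusted p of 0.0139 in limma (0.00962 to 0.393 over the alternatives). Of 11 sebaceous gland genes, Fa2h, a fatty acid hydroxylase, alone was 2-fold above the rest in relapsed 3, as 0.557% of all genes were. It had 7.17 there against 5.80 to 5.92. Msln, a mesothelial surface protein, had 6.54, 7.52 and 8.78 in relapsed tumours, against 6.38, 6.08 and 6.26 in controls, with a difference of 1.37 ± 0.56 and limma gave an adjusted p of 0.194. The other mesothelial markers that are not keratins did not stand out in relapsed 3, with differences between groups of 0.01 for Upk3b, 0.26 for Upk1b, -0.30 for Lrrn4 and 0.05 for Wt1.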
